A study of Bombyx mori with 3 samples.

Results

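The genes HSP70, ERp57, Crt, Pdi and LOC101736596 code for chaperones and protein folding enzymes of the endoplasmic reticulum (ER), and were taken by name from the single-cell tables of the silkworm silk gland. They were 5 of the 16880 genes in the tables, and each name matched 1 row. HSP70 carries the synonym grp78 in RefSeq and is the ER-resident chaperone of that name, BiP in mammals, so it is not the heat-inducible row Hsp70 of the same tables. LOC101736596 is an uncharacterized gene in RefSeq that the study annotates as the alpha subunit of glucosidase II (GANAB), an enzyme that trims glucose from new N-glycans. A second row, LOC101739156, carries a like annotation, so the assignment is uncertain.

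The silk gland makes fibroin in its posterior part and sericin in its middle part, and exports both through the ER in very large amounts. A protein that enters the ER is bound by the Hsp70-type chaperone BiP, receives disulfide bonds from protein disulfide isomerases such as Pdi and ERp57, and, where it carries N-glycans, passes through a cycle of glucose trimming by glucosidase II and binding by the lectin chaperones calreticulin (Crt) and calnexin. ERp57 works together with these lectins. When unfolded proteins gather, the unfolded protein response raises many of these genes in animals.

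Silk glands of the Nistari strain of Bombyx mori, for which the labels give no treatment and no genetic change, were dissociated at 3 stages: embryos 8 days after laying (E8D), first-instar larvae at day 1 (1L1D), and larvae in their first molt (1LM). Each stage gave 1 library of the 10x Chromium 3' kit from about 2000 pooled glands, so stage and library cannot be told apart, no test between stages was possible, and every interval covers counting error only. In levels summed over a library, fewer cells of a type and less RNA per cell cannot be told apart. The cell type label of the samples says no more than eukaryotic cell. Silk protein genes, which define the tissue, were present in all 3 libraries.

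After the quality filters, 4880 cells at E8D, 4339 at 1L1D and 7125 at 1LM held 6878383, 18546139 and 13120838 UMIs (unique molecular identifiers, each a counted transcript molecule), with medians of 738, 1845 and 1465 UMIs per cell. Silk protein genes (9 rows of fibroins and sericins) took 0.323%, 5.78% and 3.35% of these UMIs. The 10 most abundant genes took 34.5% at E8D, 29.9% at 1L1D and 12% at 1LM, and mitochondrial genes 8.62%, 8.61% and 3.91%. Pairs of libraries shared 10 to 12 cell barcodes. Of fat body markers, 1 of 6 was detected in each library, at no more than 0.152 UMIs per 1000000 UMIs (counts scaled to this depth, CPM). The haemocyte markers summed to 1.89, 4.58 and 12 CPM. Defining markers of fat body were thus at or near 0, and those of haemocytes were low. The 1 neuron marker, Elav, was detected in every library, at 23.6, 18.4 and 28.4 CPM, and which cells it came from was not tested. A list of 16 heat-inducible chaperone genes, which dissociation can also raise, summed to 1067 CPM at E8D, 4291 CPM at 1L1D and 6080 CPM at 1LM, and its part in the differences between stages was not tested.

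Which of the folding genes differed between stages was asked first. HSP70 stood at 171 CPM (95% Poisson interval 161 to 181) at E8D, 119 CPM (114 to 124) at 1L1D and 364 CPM (353 to 374) at 1LM. ERp57 stood at 326 CPM (313 to 340), 123 CPM (118 to 128) and 229 CPM (221 to 238). Crt stood at 369 CPM (355 to 384), 123 CPM (118 to 128) and 397 CPM (386 to 408). In CPM these 3 genes were thus lowest at 1L1D, the stage with the highest silk protein share, and no interval of 1L1D overlapped one of another stage. For ERp57 this depended on the scaling: with TMM or DESeq2 factors, given below, it was lower at 1LM than at 1L1D.

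Pdi, the general disulfide isomerase, had 684 CPM (665 to 704) at E8D, 781 CPM (769 to 794) at 1L1D and 726 CPM (711 to 740) at 1LM. In kept cells its 3 levels lay within 1.14-fold of each other, and the highest was at 1L1D, where the other members were lowest in CPM. This closeness depended on the filter and the scaling. With all deposited barcodes Pdi had 658, 1050 and 672 CPM, and with TMM factors, given below, it was past the fold lower at 1LM than at 1L1D. LOC101736596 had 231 CPM (220 to 243) at E8D, 2.37 CPM (1.72 to 3.18, from 44 UMIs) at 1L1D and 381 CPM (370 to 392) at 1LM. It was therefore almost absent from 1 library and common in the other two, with UMIs in 20.9%, 0.922% and 44.4% of the kept cells. The plot of levels by stage shows this gap.

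**Figure D1:**
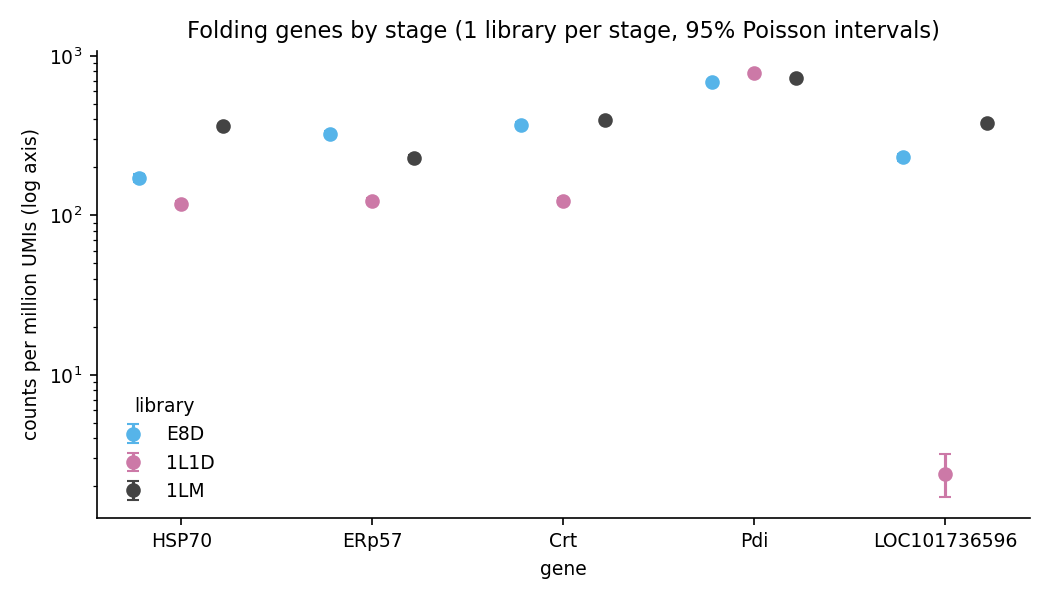
Level of each folding gene in CPM (log axis) in the 3 libraries, with 95% Poisson intervals that are mostly smaller than the points. In CPM of the kept cells, Pdi stays between 684 and 781, HSP70, ERp57 and Crt are lowest at 1L1D, and LOC101736596 drops to 2.37 there. The levels of Pdi and ERp57 between stages depend on the scaling.

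Summed, the members took 1782 CPM at E8D, 1148 CPM at 1L1D and 2096 CPM at 1LM. Pdi made up 38.4%, 68.0% and 34.6% of that sum, so its share of the members' UMIs was highest at 1L1D. Crt made up 20.7%, 10.7% and 18.9%, and ERp57 18.3%, 10.7% and 10.9%. This composition within a library does not depend on how libraries are scaled against each other.

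A ratio between stages was counted as higher or lower where it reached 2-fold and its exact binomial interval left out 0 on the log2 scale. The 3 stage pairs share libraries and are not independent. At 1L1D against E8D, 3 of the 5 members were lower, beside 22.4% of the 6363 genes with at least 100 UMIs, and 0 were higher, beside 12.8% of all genes. LOC101736596 was 97.6-fold lower (log2 -6.61, interval -7.07 to -6.18), Crt 3.01-fold lower (log2 -1.59, -1.67 to -1.51) and ERp57 2.64-fold lower (log2 -1.40, -1.49 to -1.32). HSP70 differed by a log2 of -0.53 and Pdi by 0.19. As a mean over cells, which gives shallow and deep cells the same weight, HSP70 was past the fold too (log2 -1.53), so that 4 members were lower, and Crt had -2.36. The median log2 ratio over all genes was -0.29, and relative to it ERp57 lay at -1.11, Crt at -1.30, HSP70 at -0.24 and Pdi at 0.48. With TMM factors, which scale libraries on the bulk of genes, 17.6% of all genes were higher and 14.5% lower, and the same 3 members kept log2 ratios of -6.32 (LOC101736596), -1.30 (Crt) and -1.12 (ERp57).

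At 1LM against 1L1D, 3 of the 5 members were higher and 0 lower, beside 57.9% and 5.01% of 7599 genes. A member counted as higher here says little, since the median gene had a log2 ratio of 1.17 and more than 1 gene in 2 passed the fold. LOC101736596 was 160.5-fold higher (log2 7.33, 6.90 to 7.79), far past that median. Crt was 3.23-fold higher (log2 1.69, 1.62 to 1.76) and HSP70 3.07-fold higher (log2 1.62, 1.54 to 1.69). ERp57 had a log2 ratio of 0.90, and of 1.15 as a mean over cells, and Pdi of -0.11. With TMM factors 17.8% of genes were higher and 13.1% lower, and LOC101736596 alone stayed past the fold upwards (log2 6.22). Under the same factors HSP70 and Crt had 0.51 and 0.58, the sign of ERp57 turned to -0.22, and Pdi was past the fold downwards at -1.22. DESeq2 size factors gave -0.26 for ERp57 and -1.27 for Pdi.

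At 1LM against E8D, 1 member was higher and 0 lower, beside 46.3% and 5.68% of 7186 genes. That member was HSP70, 2.13-fold higher (log2 1.09, 1.00 to 1.18), and it lay only 0.23 above the median gene, whose log2 ratio was 0.86. Its ratio fell below 2-fold with all deposited barcodes (log2 0.59) and without the 5% of cells with the most UMIs in each library (log2 0.66). LOC101736596 had a log2 ratio of 0.72, Crt of 0.10, Pdi of 0.09 and ERp57 of -0.51. With TMM factors (27.5% of genes higher, 18.9% lower) ERp57 was lower past the fold at -1.33, and the signs of LOC101736596, Crt and Pdi turned to -0.11, -0.72 and -0.74. For these 3 genes no direction between E8D and 1LM holds under every scaling.

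Other genes of the secretory pathway, grouped by role, were set beside the members. Of 8 further ER folding genes, 7 had enough UMIs in each stage pair. In 1L1D against E8D, 1 was higher, 4 were lower and their median log2 ratio was -1.02, beside -0.29 over all genes. LOC101736274, annotated as calnexin, the membrane-bound partner of Crt, was the lowest at log2 -1.70, close to Crt. Fkbp13, an ER prolyl isomerase, was the only one higher, at 1.69. In 1LM against 1L1D, 5 of 7 were higher and 0 lower with a median of 1.38, beside 1.17 over all genes, from 0.50 for the DnaJ co-chaperone gene DnaJ-8 to 4.12 for LOC101737959, annotated as the sulfhydryl oxidase QSOX1. In 1LM against E8D, 3 of 7 were higher and 0 lower, with a median of 0.65, from -0.01 for DnaJ-8 to 2.99 for Ero1, the oxidase that recharges Pdi. Ero1 itself had 7.56 CPM at E8D, 8.25 CPM at 1L1D and 60.1 CPM at 1LM, so its level at 1L1D did not follow that of Crt and ERp57.

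Of the 14 genes that carry chains into the ER, fewer passed the fold in CPM. Their median log2 ratio was -0.31 in 1L1D against E8D, beside -0.29 over all genes. It was 0.27 in 1LM against 1L1D, beside 1.17, and 0.13 in 1LM against E8D, beside 0.86. In both pairs with 1LM the list thus lay below the median gene. In 1L1D against E8D, 1 was higher (LOC692773, annotated as RAMP4, log2 1.04) and 1 lower (LOC733070, the SEC61 beta subunit, -1.05). In 1LM against E8D, 2 were higher and 1 lower, from 2.33 for LOC101746557 (SEC62) to -1.83 for LOC733070. In 1LM against 1L1D, 1 was higher, LOC101746557 at 1.83, and 0 were lower, with LOC733070 lowest at -0.78. Sec61alpha, the pore of the channel, had 367, 328 and 257 CPM.

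Beside the next lists, 12.8% of all genes were higher and 22.4% lower in 1L1D against E8D. These shares were 57.9% and 5.01% in 1LM against 1L1D, and 46.3% and 5.68% in 1LM against E8D. Of 3 oligosaccharyltransferase subunits, which attach N-glycans, 2 were lower at 1L1D than at E8D, LOC100188939 (OST4) at log2 -1.90 and LOC101737303 (DAD1) at -1.11, while LOC101736101 (OSTC) had -0.33. Between 1L1D and 1LM 0 of the 3 passed the fold, from 0.27 for OST4 to 0.89 for DAD1, and in 1LM against E8D OST4 was lower at -1.63. Of the unfolded protein response and ER degradation genes, 0 of 6 passed the fold in 1L1D against E8D, from 0.23 for the transcription factor gene Atf to -0.71 for LOC693079 (Derlin-1). At 1LM against 1L1D 3 of 9 were higher, led by LOC101741763 (site-2 protease, log2 1.94) with LOC101735428, a transcription factor annotated as Creb3l3, lowest at 0.09. In 1LM against E8D 2 of 9 were higher, led by LOC101745567, the ER kinase PERK, at 2.82 from 10 UMIs at E8D and 10.3 CPM at 1LM, and LOC693079 was lowest at -0.36. Thus at 1L1D, where Crt, ERp57 and LOC101736596 were lower than at E8D, none of the 6 genes of this list with enough UMIs was past the fold. With so few genes, and most of all genes also within the fold, this says little about the response.

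Of 4 genes of transport between ER and Golgi, 1 was higher at 1L1D than at E8D, LOC101737155 (the cargo lectin ERGIC-53, log2 1.08), with ERD2, the receptor that returns escaped ER chaperones, lowest at -0.89. In 1LM against 1L1D 1 was higher, the vesicle coat GTPase gene LOC101735890 (SAR1b, 1.17), with LOC101737155 lowest at -0.48, and in 1LM against E8D 0 passed the fold, from 0.60 for LOC101737155 to -0.66 for LOC101741617, the coat subunit SEC13. Over these 5 lists together, 3 genes were higher and 7 lower in 1L1D against E8D, beside 12.8% and 22.4% of all genes. The counts were 10 and 0 in 1LM against 1L1D, beside 57.9% and 5.01%. In 1LM against E8D they were 7 and 2, beside 46.3% and 5.68%. The lists had 7, 14, 3, 6 and 4 genes compared, with 9 in place of 6 in the pairs with 1LM. A count of higher genes says little in those pairs, where the median gene had log2 ratios of 1.17 and 0.86. With TMM factors the same counts were 3 and 2, 3 and 9, and 5 and 12, so the balance of higher and lower genes turned with the scaling in all 3 pairs.

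Chaperones outside the ER were compared in the same way. Of all genes, 12.8% were higher and 22.4% lower in 1L1D against E8D. The shares were 57.9% and 5.01% in 1LM against 1L1D, and 46.3% and 5.68% in 1LM against E8D. Of 13 cytosolic chaperones, 1 was higher and 5 lower in 1L1D against E8D, from 1.32 for the co-chaperone DnaJ-5 to -1.64 for the prolyl isomerase Fkbp12. In 1LM against 1L1D 5 were higher, led by the co-chaperone DnaJ-2 at 1.41 with the cytosolic Hsp70 relative Hsc70-4 lowest at -0.32, and in 1LM against E8D 4 were higher and 1 lower, with DnaJ-5 at 2.37 and Fkbp12 at -1.47. The median log2 ratios of these cytosolic genes were -0.56, 0.91 and 0.11 in the 3 pairs, beside -0.29, 1.17 and 0.86 over all genes. Both mitochondrial chaperonins, LOC101741707 (Hsp60) and LOC101745352 (Hsp10), were lower at 1L1D than at E8D, at -1.74 and -2.18, and lower at 1LM than at E8D, at -1.14 and -1.35. Of 12 heat-inducible genes compared, 10 were higher at 1L1D than at E8D and 11 at 1LM than at E8D, led by LOC101742383, a row of the small heat shock and Hsp70 list, at 3.42 and 5.96, with the small heat shock genes Hsp20.4 (-0.90) and Hsp21.4 (0.45) lowest. From 1L1D to 1LM 7 of 12 were higher and 1 lower, from 2.54 for LOC101742383 to -1.43 for Hsp21.4. The heat-inducible row Hsp70 had 94.9 CPM at E8D and 501 CPM at 1L1D, where the ER gene HSP70 had 171 and 119 CPM. The silk protein genes with enough UMIs, 6 of 7, were all higher at 1L1D than at E8D, from 2.58 for the fibroin light chain Fib-l to 7.78 for the fibroin heavy chain FIBH. From 1L1D to 1LM they ran from 1.97 for the sericin gene Ser2 to -1.85 for LOC101740082, annotated as sericin 1, and in 1LM against E8D from 8.06 to 1.40 for the same 2 genes.

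How the members varied with the silk protein share of the same cells was asked next. The cells of each library were ordered by silk share into 4 groups, and the group with the highest share (silk-rich) was set against that with the lowest (silk-poor). Levels were taken per 1000000 UMIs that were not silk UMIs (non-silk CPM), because a higher silk share would otherwise lower every other gene. At E8D the silk-poor group was the 1716 cells with 0 silk UMIs, and the silk-rich group held 0.976% silk UMIs. At 1L1D the silk-poor and silk-rich groups held 0.256% and 19.8%, and at 1LM 1.15% and 6.46%. At 1L1D and 1LM no kept cell was without a silk UMI, and the part of free RNA in these silk UMIs was not tested. At 1L1D the silk-poor cells were also deeper, with a median of 5690 UMIs per cell against 2187 in the silk-rich ones.

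Pdi was higher in silk-rich cells of every library, and its level went up at each step between groups. At 1L1D its level over the 4 groups was 324, 473, 855 and 2261 non-silk CPM, 6.99-fold higher in silk-rich than in silk-poor cells (log2 2.80, 2.74 to 2.87). At E8D it was 387, 465, 883 and 1093 non-silk CPM, 2.83-fold higher (log2 interval 1.38 to 1.62). At 1LM it was 504, 744, 832 and 1039 non-silk CPM, 2.06-fold higher (log2 1.04, 0.97 to 1.12). The 1LM ratio sat at the threshold: with cells matched for depth it was 0.83 on the log2 scale, while at E8D and 1L1D it was 1.45 and 2.80. Ranked by this ratio among all genes compared, Pdi was 36th of 2700 at E8D, 35th of 5002 at 1L1D and 184th of 5841 at 1LM. By fixed classes of silk share at 1L1D, Pdi had 325 non-silk CPM in cells under 1% silk, 627 from 1% to 5%, 1211 from 5% to 10%, 1769 from 10% to 20%, and 3138 in the 328 cells at 20% or more.

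HSP70 went the other way. Its level over the 4 groups was 254, 162, 155 and 97.4 non-silk CPM at E8D, 142, 91.6, 176 and 63.5 non-silk CPM at 1L1D, and 517, 362, 315 and 238 non-silk CPM at 1LM. Silk-rich cells were lower by 2.61-fold at E8D (log2 -1.39, -1.64 to -1.14), 2.24-fold at 1L1D (-1.16, -1.37 to -0.96) and 2.17-fold at 1LM (-1.12). At 1LM the log2 ratio was -0.93 with all deposited barcodes, under the fold. At 1L1D this was not a steady decline, since the third group, richest in sericin at 1.34% of its UMIs, had the highest level. The heat-inducible list was also lower in silk-rich than in silk-poor cells in all 3 libraries. Over the 4 groups it had 1326, 1445, 810 and 618 non-silk CPM at E8D. At 1L1D it had 4774, 5009, 5769 and 2705 non-silk CPM, where it too was highest in the third group. At 1LM it had 10548, 4919, 3975 and 3239 non-silk CPM. From the first to the second group of E8D and of 1L1D, the list went up while HSP70 went down. The part of the heat-inducible list in the HSP70 difference was not tested.

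Crt was lower in silk-rich cells at E8D (504 non-silk CPM in silk-poor and 241 in silk-rich cells, log2 -1.06) and at 1L1D (168 and 66.3 non-silk CPM, log2 -1.34), and at 1LM its log2 ratio was -0.35 (451 and 354 non-silk CPM). ERp57 passed the fold at E8D only of the 3 libraries, with 501 non-silk CPM in silk-poor and 175 in silk-rich cells (log2 -1.52, -1.70 to -1.34). At 1L1D it had 120 and 122 non-silk CPM (log2 0.02, -0.14 to 0.19), and at 1LM 239 and 217 non-silk CPM (log2 -0.14). The 2 disulfide isomerases of this group, Pdi and ERp57, thus took different courses with the silk share of the cell in each library.

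LOC101736596 had 276 non-silk CPM in silk-poor and 181 in silk-rich cells at E8D (log2 -0.61, -0.81 to -0.41) and 215 and 515 non-silk CPM at 1LM, where it was 2.40-fold higher (log2 1.26, 1.14 to 1.38). At 1L1D its 38 UMIs in both groups were too few for a ratio to be counted. The plot of levels by silk group shows Pdi going up with silk beside the lower ends of HSP70 and Crt, and LOC101736596 going up at 1LM.

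**Figure D2:**
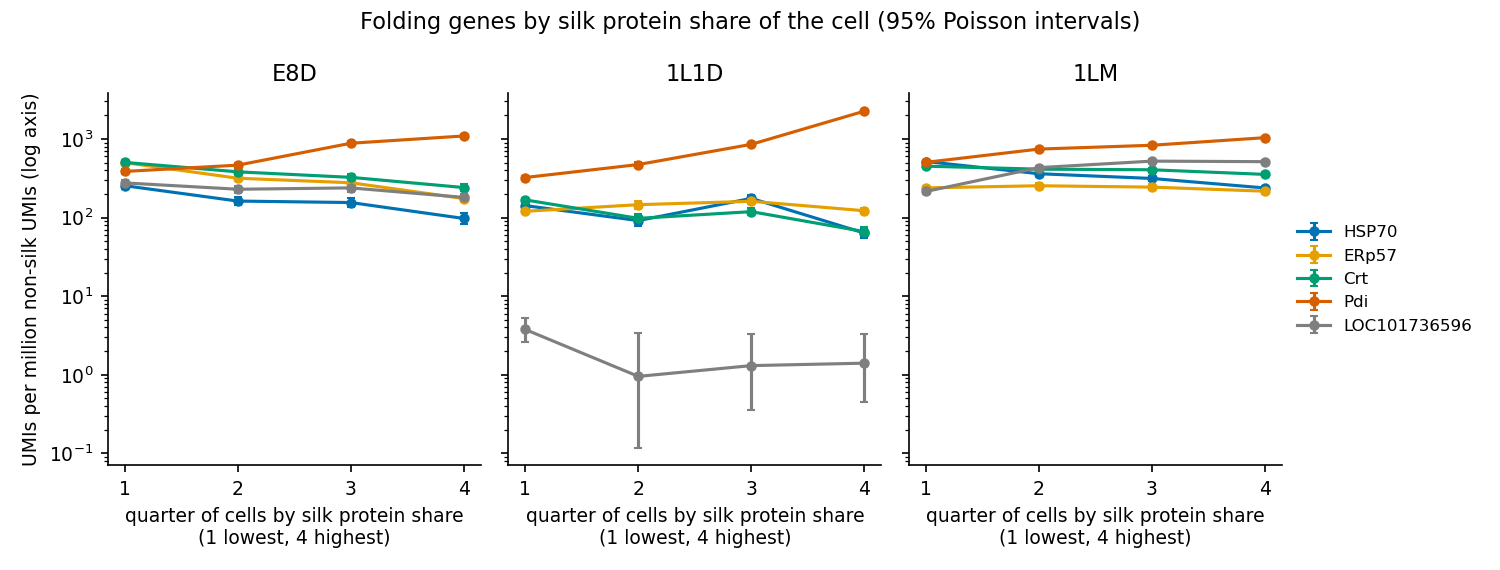
Level of each folding gene in non-silk CPM (log axis) in 4 groups of cells ordered by silk protein share, for each library, with 95% Poisson intervals. Pdi climbs in every library, most at 1L1D (324 to 2261), and HSP70 ends lower than it starts in all 3.

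By the 2-fold rule, 1 member was higher and 3 were lower in silk-rich cells at E8D, beside 11.9% and 14.4% of 2700 genes. At 1L1D 1 of the 4 members compared was higher and 2 were lower, beside 7.72% and 20% of 5002 genes. At 1LM 2 were higher and 1 lower, beside 3.66% and 17.6% of 5841 genes. Cells of 1 library are not replicates, so these are descriptions of 3 libraries.

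The further ER folding genes did not share the course of Pdi. None of them was higher in silk-rich cells past the fold in any library, of 4 compared at E8D, 6 at 1L1D and 7 at 1LM. Fkbp13 was 13.1-fold lower at 1L1D (log2 -3.71, from 323 UMIs in silk-poor and 10 in silk-rich cells) and lower at 1LM (log2 -2.35), and Ero1 was lower at 1LM (log2 -2.39). Calnexin (LOC101736274) had log2 ratios of 0.25, -0.67 and 0.61. Of the genes of entry into the ER, 7 of 14 were higher in silk-rich cells at E8D and 1 was lower (LOC101746557, log2 -1.40), 9 of 14 were higher at 1L1D and 0 lower, and at 1LM 0 were higher and 1 was lower (LOC733070, log2 -1.19). Their medians were 0.93, 1.41 and -0.43, beside 0.18, -0.18 and -0.10 over all genes. Both mitochondrial chaperonins were higher in silk-rich cells at E8D. Sec61alpha was 6.17-fold higher at 1L1D (log2 2.63) and 3.16-fold higher at E8D (log2 1.66), and at 1LM had a log2 ratio of -0.17, where Pdi had 1.04. Among the heat-inducible genes 7 of 8 were lower in silk-rich cells at E8D, 7 of 10 at 1L1D and 10 of 12 at 1LM.

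Fibroin and sericin UMIs were also ranked apart, although many cells held both: at 1LM the fibroin heavy chain FIBH had UMIs in 100% of cells and the sericin gene Ser2 in 99.7%. When cells were ranked by fibroin alone, Pdi was again higher, with 363 non-silk CPM in fibroin-poor and 1124 in fibroin-rich cells at E8D, 369 and 2261 at 1L1D, and 478 and 1008 at 1LM. HSP70 was 2.74-fold lower in the fibroin-rich cells of 1L1D (174 and 63.4 non-silk CPM, log2 -1.45) and Crt 2.71-fold lower (179 and 66.2 non-silk CPM, log2 -1.44). When the same 1L1D cells were ranked by sericin alone, the order turned: HSP70 had 98.5 non-silk CPM in the 2176 cells without a sericin UMI and 204 in the 1085 sericin-rich cells, 2.07-fold more (log2 1.05, 0.91 to 1.19). ERp57 had 106 and 184 non-silk CPM (log2 0.80) and Crt 97.7 and 152 (log2 0.64). Pdi had 898 and 648 non-silk CPM, lower in the sericin-rich cells (log2 -0.47, -0.54 to -0.40). The 2176 cells without sericin UMIs held more silk UMIs in all (6.48%) than the sericin-rich cells (3.99%). How many of the fibroin-rich cells were among them was not counted.

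At 1LM, ranking by sericin gave 212 and 283 non-silk CPM for ERp57 (log2 0.42), 752 and 771 for Pdi (log2 0.04) and 318 and 524 for LOC101736596 (log2 0.72). At E8D only 337 cells had a sericin UMI, and all members had lower levels in them, from a log2 ratio of -0.35 for ERp57 to -0.90 for HSP70. The plot of fibroin-rich and sericin-rich cells puts both rankings side by side.

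**Figure D3:**
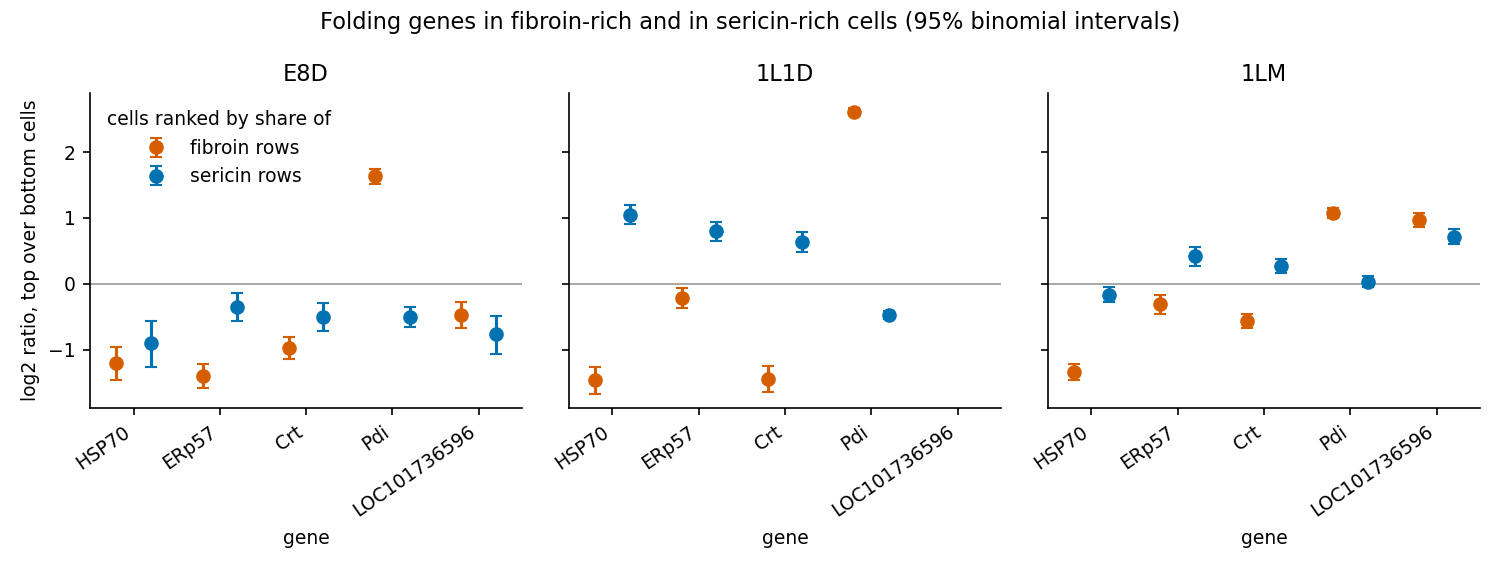
Log2 ratio of each folding gene between the top and bottom cells ranked by fibroin rows or by sericin rows, per library, with 95% binomial intervals (LOC101736596 at 1L1D has too few UMIs and is not drawn). At 1L1D Pdi is at 2.61 for fibroin and -0.47 for sericin, while HSP70 is at -1.45 and 1.05.

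Across single cells the counts were sparse. After every cell was thinned to 500 UMIs, HSP70 had a UMI in 9.10% of cells at E8D (exact binomial interval 8.31% to 9.94%), 3.20% at 1L1D and 16.1% at 1LM, and Pdi in 25.8%, 29.9% and 31.6%. Without thinning the shares were 15.6%, 20.2% and 37.4% for HSP70 and 41.0%, 72.2% and 65.6% for Pdi. All cells have an ER, so no cell type could serve to measure the background of these shares. Of thinned cells, 44.7% at E8D, 61.3% at 1L1D and 34.5% at 1LM had no UMI of any member.

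HSP70 and Crt met in the same cells at E8D more often than their single shares give. Both were seen in 3.05% of the thinned E8D cells (2.59% to 3.58%), where the product of their shares is 1.51%. For HSP70 and Pdi the share was 2.64%, beside a product of 2.35%. At 1LM HSP70 and Crt met in 3.24% of cells, beside a product of 2.86%.

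Over the thinned cells, Pdi and the silk share had Spearman correlations of 0.20 (E8D, 4880 cells), 0.41 (1L1D, 4339 cells) and 0.20 (1LM, 7125 cells), and the other members lay between -0.09 and 0.15. In barcodes of at least 5000 UMIs, a group chosen after the data were seen and without the filter on UMIs per detected gene, it was 0.58 (421 barcodes), 0.83 (1352) and 0.47 (532), with Pearson values of 0.35, 0.89 and 0.55. The barcodes of 1 library share that library, and both measures come from the same UMIs. In these deep barcodes of 1L1D the median Pdi level was 2.89 per 10000 non-silk UMIs under 1% silk, 6.0 from 1% to 5%, 11.1 from 5% to 10%, 17.3 from 10% to 20% and 30.2 at 20% or more. Every such barcode at 1% silk or more held Pdi UMIs, while 55 of the 672 below 1% held none.

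**Figure D4:**
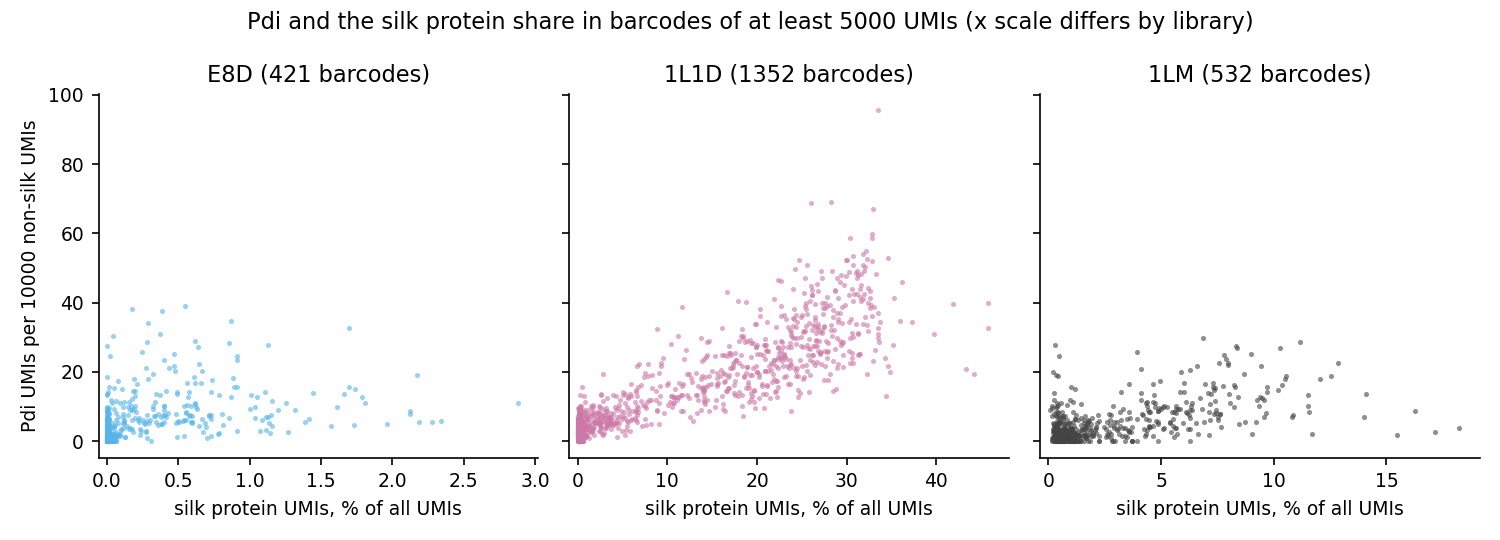
Pdi UMIs per 10000 non-silk UMIs (y) against the silk protein share of the barcode in percent (x, scaled for each library), for barcodes of at least 5000 UMIs, each point 1 barcode. At 1L1D the points climb along the whole range of silk share, and at E8D and 1LM they spread more (Spearman 0.83 against 0.58 and 0.47).

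In the same deep barcodes HSP70 and Crt went together at E8D, with a Pearson correlation of 0.83 (Spearman 0.53), and had 0.40 at 1L1D and 0.44 at 1LM. ERp57 and Crt had Pearson values of 0.58, 0.29 and 0.57. Pdi stood apart from both, with 0.04, -0.20 and 0.13 against HSP70 and 0.01, -0.14 and 0.08 against Crt. These are descriptions, as the barcodes share depth and library.

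To see in which cells the members were high, the cells of each library were clustered without the members and the other folding and silk genes, which gave 6, 10 and 14 clusters. Of these, 4, 4 and 8 had raised markers of a cell type of the study and are called by it with the ending -like: fibroin protein-synthesizing (FPS), sericin protein-synthesizing (SPS), ER stress signaling (ERSS), liquid silk fibrosis (LSF), epithelial cell remodeling (ECR), chitin metabolism (CM), and sericin or fibroin protein catabolism (SPC, FPC). For a name, the median marker of the type had to be at least 2-fold above the other cells. The names are loose. Several named clusters had 0 of these markers among their 10 leading genes, as did the E8D FPS-like, 1L1D SPC-like and 1LM ECR-like (cluster 9) ones. The study listed all members among the ER lumen genes of its ERSS cells, so their level in ERSS-like cells is not independent evidence.

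At E8D the ERSS-like cluster (1011 cells) was highest of the 6 for HSP70, ERp57, Crt and LOC101736596. HSP70 had 690 non-silk CPM there (639 to 744), and 51.5 to 125 in the other clusters, 8.06-fold more than in all other cells. Crt had 1037 non-silk CPM, 3.99-fold more than in the other cells, ERp57 898 non-silk CPM, 3.86-fold more, and LOC101736596 421 non-silk CPM, 2.10-fold more. More than 1 in 2 of all HSP70 UMIs of the library, 57.2%, came from this cluster. The heat-inducible list summed to 472 non-silk CPM there, the lowest of the 6 clusters. Pdi had 602 non-silk CPM there, and its highest level, 1237 non-silk CPM (1185 to 1291), in the FPS-like cluster, 2.46-fold more than in the other cells. In that FPS-like cluster ERp57 and Crt were the lowest of the 6 clusters, at 121 and 179 non-silk CPM. The second highest Crt level, 589 non-silk CPM, was in an unnamed cluster of 68 cells led by LOC101738051.

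At 1L1D the FPS-like clusters 1 and 5 had the highest Pdi levels, 1513 and 2353 non-silk CPM, and with 12.9% and 19% the highest silk shares. HSP70 was 30.3 and 48.7 non-silk CPM in them. The highest Crt level, 431 non-silk CPM, was in the SPC-like cluster of 156 cells, where HSP70 had 356 and ERp57 261 non-silk CPM. The study places SPC cells at 1LM, so this name at 1L1D rests on the marker ratios alone. An unnamed cluster of 25 cells led by LOC105841987, with 3.39% sericin UMIs, had the highest HSP70 and ERp57 levels, 455 and 277 non-silk CPM. Both clusters with the most sericin UMIs thus had the highest HSP70 levels of the library. LOC101736596 lay between 0 and 6.83 non-silk CPM in all 10 clusters, so its low level was not that of 1 cell group.

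At 1LM an ECR-like cluster of 234 cells (cluster 9) had 1991 HSP70 non-silk CPM (1865 to 2124), 6.33-fold more than the other cells, while the remaining 13 clusters lay between 116 and 530. The highest HSP70 level of a 1LM cluster was 1909 non-silk CPM with finer clusters (resolution 1.6). It was 711 with coarser ones (resolution 0.4) and 966 with all deposited barcodes. Inside cluster 9, the 59 cells with the least silk held 551 of its 929 HSP70 UMIs, at 3181 non-silk CPM. The 59 with the most silk had 870. Ero1 was also higher in cluster 9 (307 non-silk CPM, log2 2.54 over the other cells), as was the translocation DnaJ protein DnaJ-19, annotated as SEC63 (212 non-silk CPM, log2 1.53), while LOC101739156 had a log2 ratio of -0.06. The heat-inducible list summed to 13882 non-silk CPM in this cluster. It summed to more, 17699 non-silk CPM, in cluster 10, where HSP70 had 226 non-silk CPM. Cluster 9 held 19.5% of the HSP70 UMIs of the library, and the part of the heat-inducible genes in its HSP70 level was not tested.

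Crt and ERp57 were highest at 1LM in an unnamed cluster of 193 cells led by LOC101745053, at 911 and 409 non-silk CPM. LOC101745053, an ERSS marker, was also among the leading genes of the ERSS-like cluster at E8D. Of the 5 ERSS markers only 3 were detected at 1LM, summing to 23.3 CPM with the highest at 23.1 CPM. The 1LM cluster was thus not tied to ERSS cells by its other markers. Pdi was highest in clusters 3 and 1, neither of them named, at 1216 and 1027 non-silk CPM, and LOC101736596 in clusters 1 and 3, at 562 and 504 non-silk CPM, and was lowest in cluster 10, at 139. Over the 14 clusters LOC101736596 went with the silk share of the cluster (Spearman 0.89), while Pdi had 0.36. At 1L1D Pdi had 0.92 over 10 clusters.

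**Figure D5:**
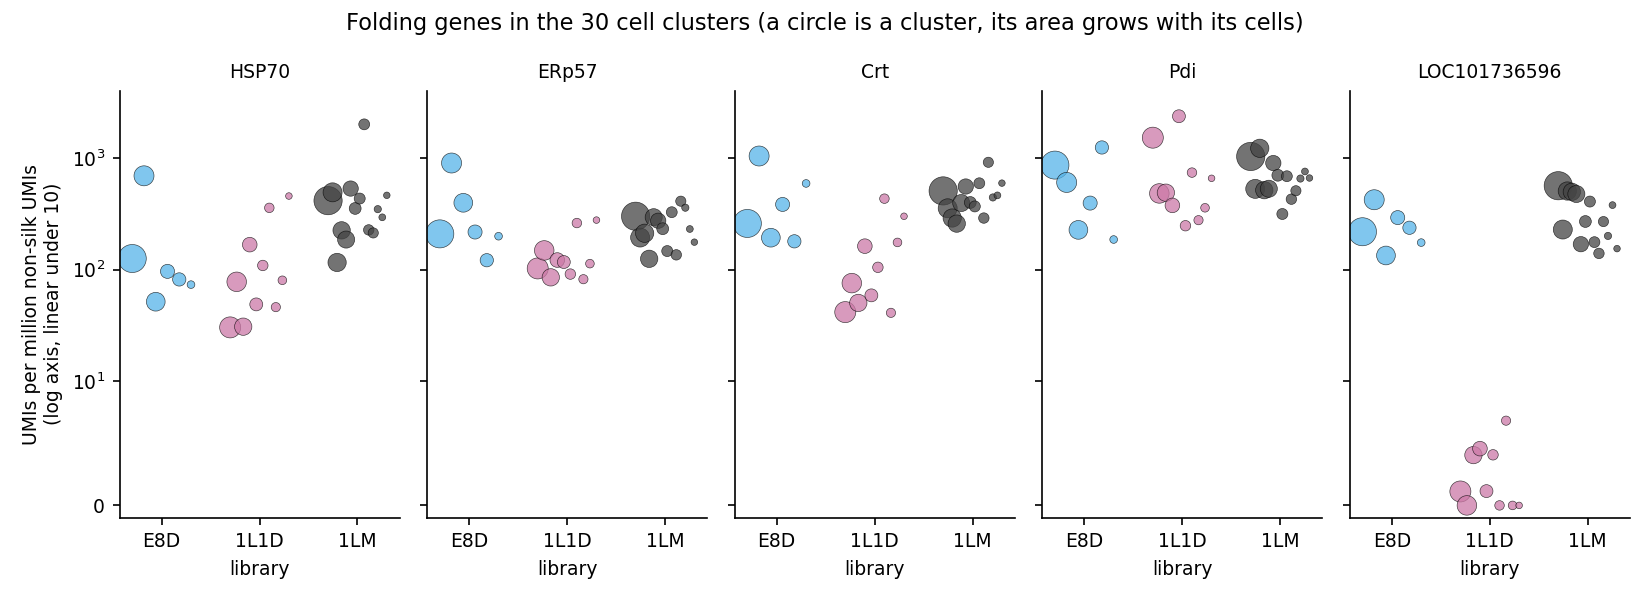
Level of each folding gene in non-silk CPM (log axis, linear under 10) in each of the 30 clusters, where a circle is 1 cluster and its area grows with its number of cells. HSP70 has 1 cluster far above the rest at E8D (690) and at 1LM (1991), and LOC101736596 is at or under 6.83 in every cluster of 1L1D.

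Within clusters Pdi went less with silk, and with the clusters joined it was past the fold at 1L1D only. In 4 silk groups taken inside each cluster and then joined, a comparison added after the data were seen, Pdi had log2 ratios of 0.57 at E8D, 1.89 at 1L1D and 0.64 at 1LM. HSP70 had -0.75, 0.04 and -0.39, so that silk-rich and silk-poor cells of 1L1D had like HSP70 levels once clusters were matched (interval -0.13 to 0.22). The course differed between clusters. Pdi did not go up with silk in the E8D FPS-like cluster, where it was highest (1100 non-silk CPM in silk-rich and 1206 in silk-poor cells, log2 -0.13, -0.32 to 0.06), nor in the E8D ERSS-like cluster (-0.00). In the other E8D clusters with enough cells it went up, with 0.61 in cluster 1, 0.78 in the SPS-like and 0.86 in the LSF-like cluster. At 1LM it had log2 ratios of 0.05 in cluster 1, -0.01 in the FPC-like cluster and -0.14 in cluster 9. The other 1LM clusters with enough cells ran from 0.67 in cluster 10 to 1.08 in the SPC-like cluster, with every interval above 0. In the 6 clusters of 1L1D with enough cells it ran from 0.51 in cluster 4 to 1.94 in the SPS-like cluster. The silk-rich cells were shallower in the SPS-like cluster, with medians of 1506 and 2675 UMIs, and in cluster 4 (3708 and 18045). They were also shallower in clusters 3 (1291.5 and 1971.5) and 6 (1446.5 and 16322), but deeper in FPS-like cluster 1 (1819 and 1373.5). The part of depth and of free RNA in these ratios was not tested. Within the FPS-like cluster 5 of 1L1D, cells with 29.9% silk UMIs had 3743 Pdi non-silk CPM and cells with 6.46% had 1243 (log2 1.59, 1.48 to 1.70). In these cells Crt was also higher with silk (105 and 25.4 non-silk CPM, log2 2.05, 1.28 to 2.90), as was HSP70 (72.8 and 31.3 non-silk CPM, log2 1.22, 0.46 to 2.02). The silk-rich cells of this cluster were deeper, with medians of 9811 and 6420 UMIs.

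Over the 30 clusters of the 3 libraries, the genes most like each member were found by the Pearson correlation of log2(CPM + 10) among 4919 genes. For Pdi these were Sec61alpha (0.85), the ribosomal protein gene RpP0 (0.83) and LOC732862, annotated as a subunit of the translocon-associated complex SSR2 (0.79). For Crt they were LOC101739156 (0.86), calnexin LOC101736274 (0.86) and LOC101743498-2 (0.84), 1 of 2 rows of a symbol that one annotation names endoplasmin-like and another a reverse transcriptase. For HSP70 they were LOC101746297 (0.89), LOC101743498-2 (0.86) and LOC101744776 (0.84), annotated as the neurotrophic factor MANF. For ERp57 they were Crt (0.80), LOC101744776 (0.75) and the yellow family gene Y-d (0.74). Among the members themselves HSP70 and Crt had 0.78, ERp57 and Crt 0.80, and Pdi lay between -0.05 and 0.10 with each of the others. Within the libraries, which differ in mean level, HSP70 and Crt had 0.76 over 6 clusters at E8D, 0.94 over 10 at 1L1D and 0.42 over 14 at 1LM, and Pdi ran from -0.52 (LOC101736596 at 1L1D) to 0.50 (LOC101736596 at E8D), with 0.39 for ERp57 at 1LM.

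For LOC101736596 the 3 most alike were LOC101737346 (0.94), the long noncoding RNA gene LOC105842567 (0.92) and LOC105842655 (0.92). The 30 points come from only 3 libraries, so that a gene low in the same library as LOC101736596 counts as alike. These 3 genes have no assigned role in the annotations used.

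The filter on UMIs per detected gene removed deep barcodes, and the members there are given because a deep cell can be of another kind. At 1L1D the 370 removed barcodes had a median of 31082 UMIs and 15.5% silk UMIs, with 1509 CPM of Pdi (1487 to 1531), against 781 CPM in kept cells, and 0.73 CPM of LOC101736596. At E8D the 196 removed barcodes had 259 CPM of HSP70, and at 1LM the 381 removed ones had 117 CPM, against 171 and 364 CPM in kept cells.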

How the data were processed

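The authors dissociated about 2000 pooled glands per stage, mapped the 10x reads with Cell Ranger 3.1.0 and STAR to assembly ASM15162v1, and deposited raw UMI counts per gene and cell barcode; the study's methods also mention downsampling of reads to aggregate samples. Barcodes were kept where the number of UMIs per detected gene lay within 2 SD of the library mean and mitochondrial genes took at most 30% of UMIs. This left 4880 of 5351, 4339 of 6000 and 7125 of 7513 barcodes at E8D, 1L1D and 1LM. No doublet caller was run, and free RNA was not removed.

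Levels are summed UMIs as CPM, with exact Poisson intervals for levels, exact binomial (Clopper-Pearson) intervals for ratios and shares, at 95%, for counting error only. A ratio was counted as higher or lower at 2-fold with an interval that left out 0, given at least 100 UMIs over both groups. Clusters were built per library from 2000 variable genes, 30 components, 20 neighbours and Leiden resolution 0.8, leaving out 96 genes (the members, the lists and mitochondrial genes). The cell type markers were picked by the study from these libraries. Named genes were the members, the highest and lowest gene of each list in each stage pair, and the 3 genes most like each member; Sec61alpha, calnexin, LOC101739156, the translocon subunit LOC732862, the heat-inducible Hsp70 and genes picked out in clusters or by silk share were named after their values were seen. Members and lists were chosen with earlier results of these data known. Gene synonyms came from RefSeq (ASM3026992v2), whose coordinates were not used. The comparison steps were tested on simulated data. Tools were Python 3.11.15, numpy 2.4.6, scipy 1.17.1, scikit-learn 1.9.0, leidenalg 0.10.2, and edgeR 4.0.16 and DESeq2 1.42.0 in R 4.3.3 for scaling factors only.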

Additional observations from a re-analysis of the deposited data

Results flagged for a closer look

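LOC101736596, the gene annotated as glucosidase II, differed with the silk protein share in opposite directions at 2 stages. Silk-rich cells had a log2 ratio of 1.26 over silk-poor cells at 1LM and of -0.61 at E8D. Each stage is 1 library, and the difference between them was not tested.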

How the results depend on the processing

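Of the counts of members or list genes past the fold, 100 stayed within 1.5 times under an alternative and 36 did not; of the other values (single genes, single lists, cells and clusters), 424 kept their call or stayed near their main value, 74 moved, 36 lost the fold, 8 gained it, and 5 ratios past the fold changed sign. Ratios under the fold that changed sign stand among the 424: with TMM and DESeq2 factors these were ERp57 at 1LM against 1L1D (-0.22 and -0.26), and LOC101736596 (-0.11 and -0.19), Crt (-0.72 and -0.81) and Pdi (-0.74 and -0.82) at 1LM against E8D. Without the 5% deepest cells Crt at 1LM against E8D was -0.14. By silk share, ERp57 lay near 0 and changed sign under several alternatives, from -0.29 to -0.10 at 1L1D and up to 0.42 (sericin) at 1LM, as did Crt by sericin at 1LM (0.27). Between stages, the count of members higher at 1LM than at E8D was 0 with all deposited barcodes, without the filter on UMIs per gene, with TMM or DESeq2 factors, without the 5% deepest cells, and as a mean over cells. With TMM or DESeq2 factors, 1 member was higher and 1 lower at 1LM than at 1L1D, and 1 was lower at 1LM than at E8D. Of the 5 ER lists, 4 genes were higher at 1LM than at E8D with at least 500 UMIs; TMM gave 2 lower at 1L1D than at E8D, 3 higher and 9 lower at 1LM than at 1L1D, and 12 lower at 1LM than at E8D.

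By silk share at 1LM, 0 members were lower with all barcodes, without the filter on UMIs per gene, by sericin, at 10% or more against under 1% silk, as a mean over cells, and within clusters. There 1 was higher with all UMIs as denominator, by fibroin, within depth classes, as a mean over cells and without the 5% deepest cells, and 0 by sericin and within clusters. At E8D 0 were higher and 0 lower both by sericin and within clusters, and at 1L1D 0 were lower in both. The ratios past the fold that changed sign were Pdi by sericin at E8D (-0.49) and at 1L1D (-0.47), HSP70 (1.05) and Crt (0.64) by sericin at 1L1D, and HSP70 within clusters at 1L1D (0.044). The cause was not tested. Too few cells at E8D reached 10% silk for that alternative. Grouping within clusters was added after the data were seen. No paired analysis was possible because each stage has 1 library.

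With 1 library per stage, library and stage cannot be told apart. Over 1 library, free RNA, doublets and dissociation were not measured apart from the cells. LOC101736596 had too few UMIs at 1L1D to compare cells there.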
